A study of Mus musculus with 40 samples.

Results

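The comparison described here follows macrophages with a targeted Otulin gene from 12 h to 24 h after addition of lipopolysaccharide (LPS). Bone marrow cells of OtulinFL/FL LysMCreTg/WT mice (KO here) were grown into macrophages with medium taken from L929 fibroblasts, which secrete M-CSF. They then received 500 ng/ml of ultrapure LPS from Salmonella minnesota. The 8 libraries were chosen by their titles in the labels, 4 collected at 24 h and 4 at 12 h, out of 40 libraries in the series. The series also holds KO libraries at 0, 3 and 6 h and the same times in macrophages of OtulinFL/FL mice without Cre (WT here), with 4 libraries in each of 10 groups. All groups carry the loxP-flanked Otulin alleles, so WT cells are floxed cells. A group with Cre and no floxed allele was not analysed here. In these mice Cre is driven from the LysM (Lyz2) locus, which is active in myeloid cells. The sources used here give neither age nor sex, nor how many mice a culture came from. The labels call the libraries biological replicates but do not say that a replicate number marks 1 animal, so p-values measure the spread between these samples.

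LPS is sensed by Toll-like receptor 4, which signals through the adaptors MyD88 and TRIF to the transcription factors NF-kB and IRF3. Macrophages answer with an early wave of cytokines and chemokines, a type 1 interferon response that follows from secreted interferon, and inhibitors of both pathways that bring the response down. OTULIN is the deubiquitinase that removes linear ubiquitin chains, which are built on signalling complexes by the LUBAC ligase and pass the signal on to NF-kB. Macrophages exposed to LPS also stop dividing and change their fuel use, their lipid synthesis and the proteins they secrete.

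RNA was measured by 3′ tag sequencing, in which a read stands for the 3′ end of an mRNA, so counts of different genes can be compared without correction for length. The 8 libraries held 4290997 to 5915284 counts. Values are given as CPM, the counts of each library scaled to 1 common total after TMM normalization. In a principal component analysis of the 8 libraries, the first component (43.6% of the variance) separated the 2 times. The second component (18.1%) held KO replicate 4 at 1 end, at 43.6 for 12 h and 19.5 for 24 h, and KO replicate 3 at the other, at -28.8 and -16.8, while replicates 1 and 2 lay between -3.37 and -6.19. KO replicate 3 was also the replicate with Y-linked tags (189 and 245 CPM, against at most 0.466 CPM in the others) and next to no Xist (at most 0.417 CPM, against at least 228 CPM). Mitochondrial transcripts made up 1.33% to 1.95% of counts at 12 h and 1.33% to 1.64% at 24 h. A gene was called when edgeR's quasi-likelihood test gave a Benjamini-Hochberg adjusted p under 0.05 over all genes tested. All adjusted p-values below are from that test, and log2 fold changes are 24 h minus 12 h with their standard error (SE).

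The targeted gene came first. Otulin tags stood at 32.9, 34.4, 27.6 and 36.7 CPM at 12 h and 50.7, 46.4, 45.2 and 51.7 CPM at 24 h. The groups did not overlap, and the rise was 1.49-fold (log2 fold change 0.58, SE 0.111, adjusted p = 0.000246). KO means before that were 35.9 CPM at 0 h, 32.5 at 3 h and 31.1 at 6 h, so the 24 h libraries were the highest of the KO time course. In WT the same interval took Otulin from 32.9 ± 1.95 CPM to 32.2 ± 4.83 CPM (log2 fold change -0.03, adjusted p = 0.867). The KO step exceeded the WT step by 0.59 on the log2 scale (SE 0.164), with an unadjusted p of 0.00167 and an adjusted p of 0.9998 in the test of that difference over all genes. The labels do not give the floxed exons, and a 3′ tag outside the deleted part does not show whether the gene was deleted. Lyz2, the lysozyme gene whose locus drives Cre, stood at 2022, 1822, 1932 and 2368 CPM at 12 h and 1887, 2119, 1916 and 2022 CPM at 24 h, with overlapping groups (log2 fold change -0.02, SE 0.107, adjusted p = 0.915).

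**Figure D1:**
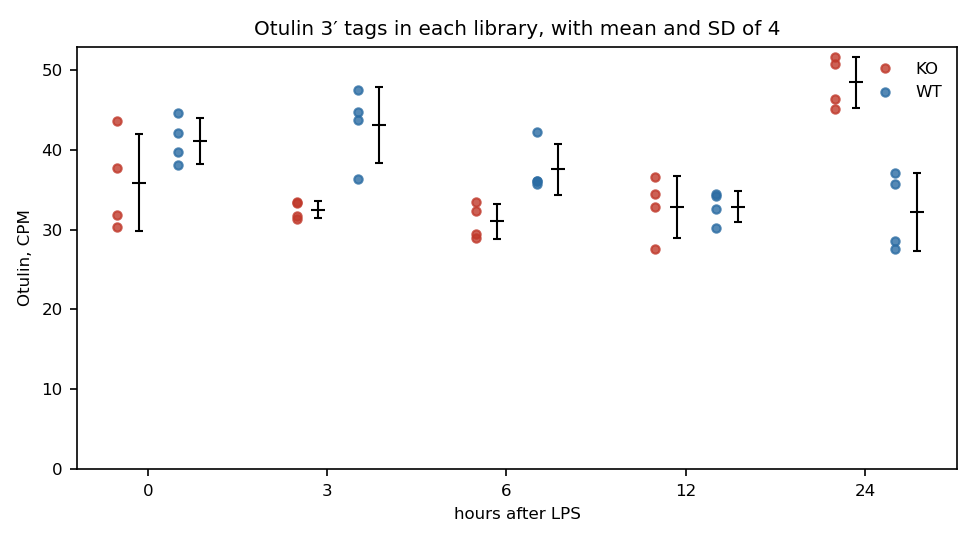
Otulin CPM in each of the 40 libraries by hours after LPS, with KO in red, WT in blue and the mean ± SD of 4 libraries in black. The 4 KO libraries at 24 h lie at 45.2 to 51.7 CPM, above the 27.6 to 36.7 CPM of the KO libraries at 12 h, while the WT means at 12 h and 24 h are 32.9 and 32.2 CPM.

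Between 12 h and 24 h a large part of the transcriptome moved, in both directions about equally. Of 12037 genes tested, 2176 were called higher (18.1%) and 2260 lower (18.8%), together 36.9%. Counts by gene list below are to be read against these shares. Changes over 2-fold were seen in 470 genes called higher and 573 called lower. All 4 values at 24 h lay above all 4 at 12 h in 14.1% of genes and below them in 15.6%. The median log2 fold change over all genes was 0.02. In bulk RNA, fewer cells of a kind and less RNA per cell cannot be told apart.

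The direction of a gene's step went with its earlier response to LPS. Among 3460 genes that were higher at 6 h than at 0 h, a contrast of other KO libraries that called 28.7% of genes higher and 36% lower (64.7% in all), 1496 fell between 12 h and 24 h (43.2%) and 223 rose (6.45%). Among 4331 genes lower at 6 h, 1399 rose (32.3%) and 253 fell (5.84%). Among the 4246 genes not called at 6 h, 13.1% rose and 12.0% fell. The stronger the early rise, the larger the share that fell: 62.6% of 926 genes that had risen by over 2 on the log2 scale and 67.3% of 355 that had risen by over 4. Whether the return was complete at 24 h was not tested, and only the side of the 0 h mean was recorded. Genes fully back at their 0 h level could lie on either side of it. The 24 h mean was still above the 0 h mean in 1093 of the 1496 early risers that fell (73.1%), and still below it in 817 of the 1399 early fallers that rose (58.4%).

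**Figure D2:**
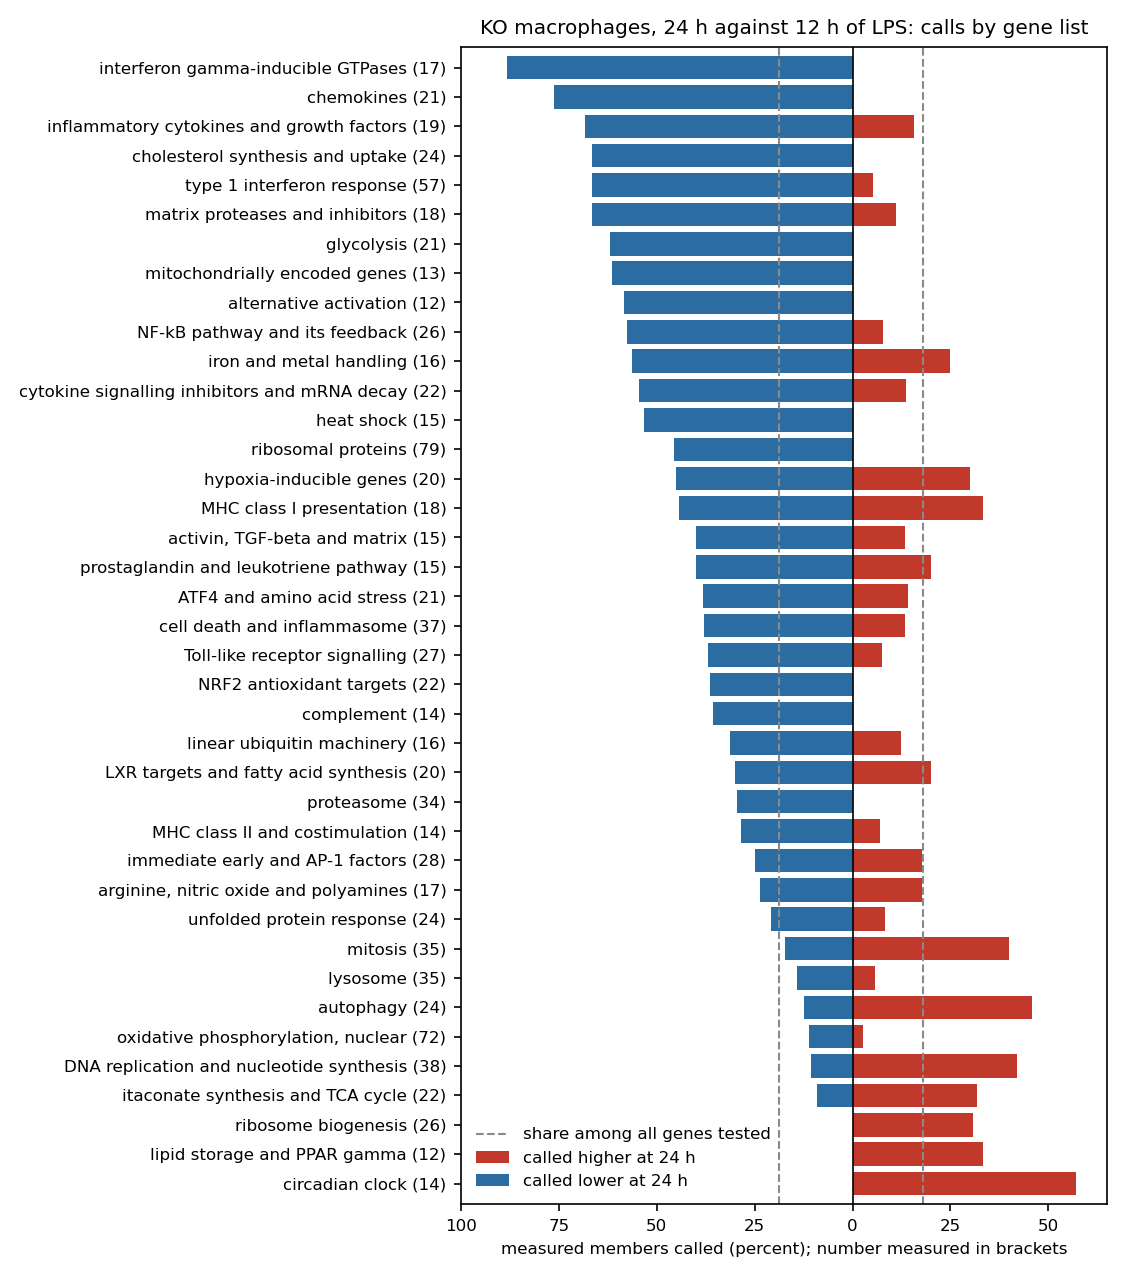
Share of the measured members of 39 gene lists called higher (red, right) or lower (blue, left) at 24 h than at 12 h in KO macrophages, with the number measured in brackets and dashed lines at the share among all genes tested (18.1% higher, 18.8% lower). The GTPases, chemokines and cytokines stand at the top with the most members called lower, and the circadian clock genes stand at the bottom with 8 of 14 called higher and none called lower.

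Most measured genes of secreted inflammatory mediators fell. Of 19 measured cytokines and growth factors, 13 fell and 3 rose, with a median log2 fold change of -1.0. Of 21 chemokines 16 fell and none rose (median -0.94), while 18.8% of all genes were called lower. Tnf, an early cytokine of the LPS response, stood at 291, 249, 263 and 327 CPM at 12 h and 64.8, 72.1, 90.7 and 81.8 CPM at 24 h. It fell 3.61-fold with no overlap between the times (log2 fold change -1.85, SE 0.0989, adjusted p = 1.80e-12), from a peak of 785 CPM at 3 h, and remained above its 24.6 CPM at 0 h. Il10, which encodes an anti-inflammatory cytokine, went the same way, from 19.9, 21.5, 14.8 and 14.8 CPM to 4.65, 1.55, 3.04 and 0.673 CPM. At 7.15-fold lower (log2 fold change -2.84, SE 0.339, adjusted p = 1.37e-06) it was among the 10 largest falls, which, like the 10 largest rises below, were picked from the called genes that averaged 10 CPM or more and whose values at the times did not overlap. Il6, an inducer of the acute phase response, fell from 32.6, 35.5, 21.6 and 44.6 CPM to 7.36, 7.1, 10.5 and 11.8 CPM (log2 fold change -1.84, SE 0.237, adjusted p = 4.25e-06). Il1b, the precursor of the fever cytokine interleukin-1 beta, stood at 453, 485, 466 and 716 CPM at 12 h and 134, 234, 151 and 339.8 CPM at 24 h, highest at both times in KO replicate 4 and without overlap (log2 fold change -1.29, SE 0.235, adjusted p = 0.000328). Il27 (log2 fold change -1.46, adjusted p = 2.23e-07) and Csf1, which encodes M-CSF itself (-1.0, adjusted p = 5.82e-07), also fell. The 3 that rose did so by smaller factors. One was Il18bp, a decoy that binds interleukin-18, at 109, 117, 113 and 109 CPM at 12 h and 140.4, 144, 149 and 152 CPM at 24 h (log2 fold change 0.40, SE 0.0924, adjusted p = 0.00136). The others, with overlapping values, were Tnfsf15 (0.47, adjusted p = 0.0118) and Osm (0.42, adjusted p = 0.0439). Only the Il18bp call held without any single library. The Tnfsf15 call was lost without 12 h replicate 4 or 24 h replicates 2 or 4 (adjusted p up to 0.0633), and the Osm call without 12 h replicates 1, 3 or 4 or 24 h replicates 1, 2, 3 or 4 (up to 0.2).

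Among the chemokines, Ccl3, which attracts monocytes and T cells, fell from 228 ± 24.7 CPM at 12 h to 64.0 ± 4.3 CPM at 24 h (mean ± SD of 4 libraries, as in all such values below), with a log2 fold change of -1.81, adjusted p = 6.05e-12. Ccl4, a close relative, fell from 367 ± 19.8 CPM at 12 h to 121 ± 14.4 CPM at 24 h (-1.59, adjusted p = 1.89e-11). Cxcl2, which draws neutrophils, fell from 101, 119.7, 59.1 and 147 CPM to 18.6, 24.2, 20.4 and 28.4 CPM, with KO replicate 3 lowest at 12 h (log2 fold change -2.2, SE 0.195, adjusted p = 2.43e-08). The interferon-induced chemokine Cxcl10 dropped from 1583, 1354, 1525 and 1306 CPM to 585, 657, 510.0 and 724 CPM and so remained far above its 6.83 CPM at 0 h (log2 fold change -1.2, SE 0.109, adjusted p = 7.68e-09). Ccl5, which attracts T cells, was the most abundant member at both times and was not called: its values were 2919, 2735, 3118 and 3360 CPM at 12 h and 2543, 2848, 2492 and 2653 CPM at 24 h and overlapped (log2 fold change -0.19, SE 0.111, adjusted p = 0.198). Edn1, which encodes the vasoconstrictor endothelin-1, had the largest of the 10 falls. It stood at 72.5, 56.3, 58.9 and 93.2 CPM at 12 h and 7.36, 6.88, 9.52 and 4.21 CPM at 24 h, a 9.99-fold fall with no overlap (log2 fold change -3.32, SE 0.211, adjusted p = 1.23e-10), after 0.169 CPM at 0 h and 476 CPM at 6 h.

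**Figure D3:**
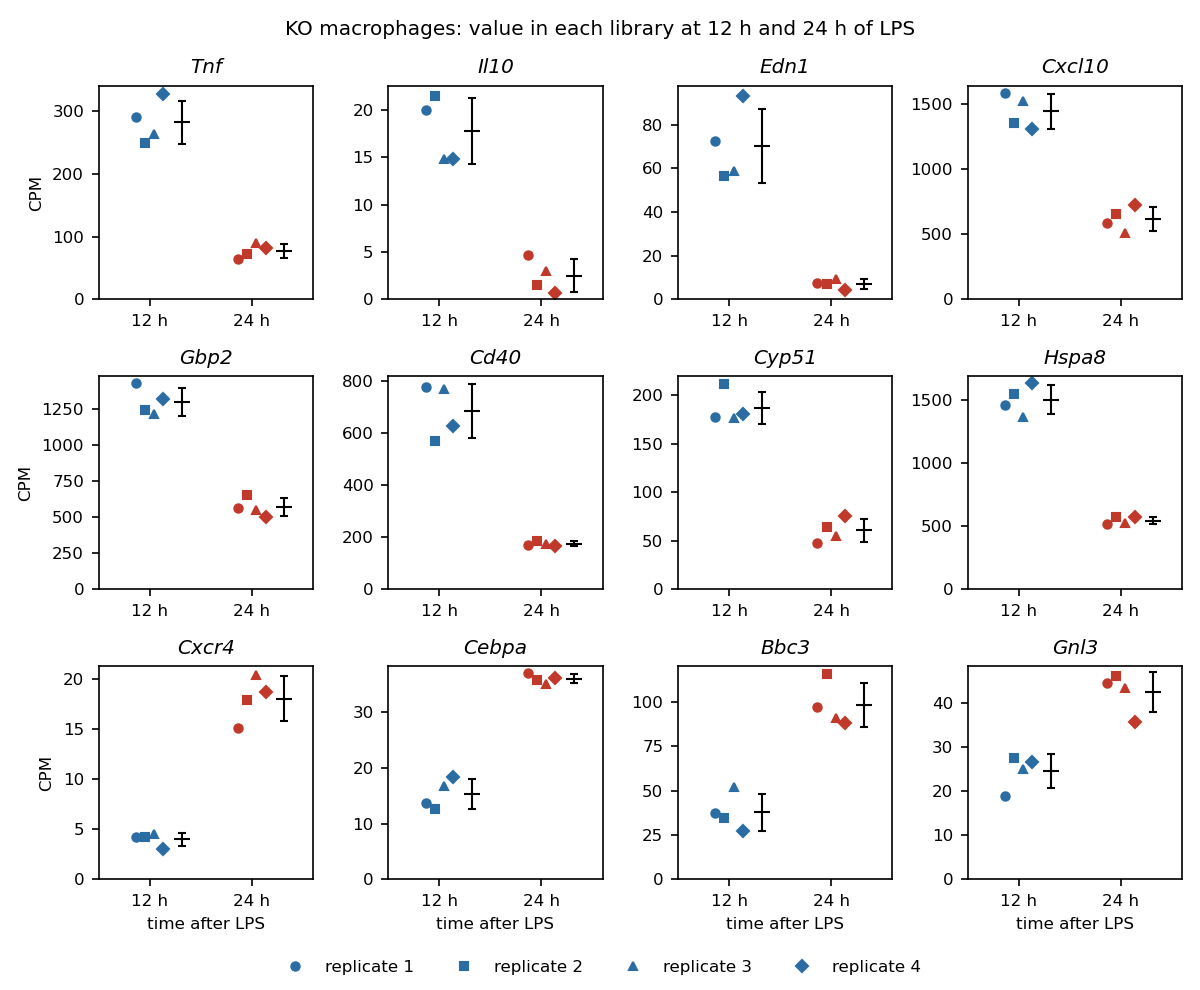
CPM of 12 genes in each KO library at 12 h (blue) and 24 h (red), with a symbol per replicate number and the mean ± SD of 4 libraries in black; every axis starts at 0. In none of the 12 genes do the values at the 2 times overlap.

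Interferon response genes fell as well. Of 57 type 1 interferon response genes, 38 fell and 3 rose (median -0.41), and of 17 measured interferon gamma-inducible GTPases, proteins that attack the vacuoles of intracellular pathogens, 15 fell and none rose (median -0.95). Gbp3 stood at 860.0, 745, 789 and 649 CPM at 12 h and 327, 335, 302 and 335 CPM at 24 h, a 2.31-fold fall (log2 fold change -1.21, SE 0.0903, adjusted p = 4.50e-10). Gbp2 stood at 1433, 1241, 1217 and 1318 CPM at 12 h and 565, 653, 552 and 503 CPM at 24 h (log2 fold change -1.18, SE 0.0924, adjusted p = 9.16e-10). Gbp4 fell from 230.4 ± 15.2 CPM at 12 h to 94.7 ± 7.97 CPM at 24 h (log2 fold change -1.27, SE 0.122, adjusted p = 1.94e-08), and Igtp from 419 ± 46.97 CPM at 12 h to 214 ± 24.7 CPM at 24 h (log2 fold change -0.95, SE 0.0869, adjusted p = 9.01e-09). None of the 4 overlapped between the times, and all remained far above their 0 h means of 5.24, 5.98, 0.131 and 15.1 CPM. These GTPases form families of close copies, so tags can be shared between members and the values of single members are less certain. Most of the GTPase start sites also hold the same short sequence. The letters GAAANNGAAA, the core of the interferon-stimulated response element, were searched on both strands from 250 bases before to 50 bases after each start in RefSeq (build GRCm38.p6). They were present in 10 of the 11 GTPases with a window (90.9%), Ifi47 being the exception, against 1131 of all 32851 windows (3.44%), and in 25 of 45 type 1 interferon genes (55.6%). Here and below, a gene counted when any of its windows matched, while the share of all windows counts single windows, so the units differ. A match is a description of the letters and not a measured site. The windows of the 3 GTPases named above that held it are shown to let the shared letters be seen, in capitals, where they stand on either strand. The windows are at chr3:142559794-142560093 (plus strand) for Gbp3, chr3:142620413-142620712 (plus strand) for Gbp2 and chr11:58199306-58199605 (plus strand) for Igtp.
Gbp3: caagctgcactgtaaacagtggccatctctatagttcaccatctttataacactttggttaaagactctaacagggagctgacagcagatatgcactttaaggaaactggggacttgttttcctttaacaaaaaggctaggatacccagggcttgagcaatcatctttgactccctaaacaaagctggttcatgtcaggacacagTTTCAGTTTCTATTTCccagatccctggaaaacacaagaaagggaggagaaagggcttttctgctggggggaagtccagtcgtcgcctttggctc
Gbp2: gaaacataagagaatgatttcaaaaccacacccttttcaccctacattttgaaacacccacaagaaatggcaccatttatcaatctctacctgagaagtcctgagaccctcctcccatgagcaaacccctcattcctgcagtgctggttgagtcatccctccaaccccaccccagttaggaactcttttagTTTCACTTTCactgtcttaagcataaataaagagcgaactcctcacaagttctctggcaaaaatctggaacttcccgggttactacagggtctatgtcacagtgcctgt
Igtp: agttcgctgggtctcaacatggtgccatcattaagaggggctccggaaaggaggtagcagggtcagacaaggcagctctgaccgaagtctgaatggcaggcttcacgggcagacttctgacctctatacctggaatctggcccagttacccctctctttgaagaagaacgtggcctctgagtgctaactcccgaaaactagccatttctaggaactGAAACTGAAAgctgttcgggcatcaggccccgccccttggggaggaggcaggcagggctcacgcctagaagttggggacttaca

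Within the type 1 interferon list, the fall was uneven. Cmpk2, a mitochondrial nucleotide kinase induced with viperin, fell from 1965, 1796, 2263 and 1892 CPM to 788, 764, 719 and 808 CPM (log2 fold change -1.35, SE 0.116, adjusted p = 4.11e-09). Ifih1, which encodes the RNA sensor MDA5, fell from 545, 490.5, 640.0 and 358 CPM to 198, 199.5, 200.1 and 189.5 CPM, with KO replicate 4 lowest at 12 h and all 4 libraries close together at 24 h (log2 fold change -1.35, SE 0.124, adjusted p = 1.00e-08). Samd9l (log2 fold change -0.89, adjusted p = 1.28e-08) and Ifit1bl1 (-0.62, adjusted p = 2.96e-06) fell by less. Ifit2, which binds foreign RNA, went from 1714 ± 291 CPM at 12 h to 1531 ± 172 CPM at 24 h, was not called and had overlapping values (-0.15, adjusted p = 0.443). Of the 3 members that rose, Slfn1 went from 54.3 ± 8.43 CPM at 12 h to 74.6 ± 4.3 CPM at 24 h (0.47, adjusted p = 0.0107). The others were Bst2, which encodes the virus tether tetherin (0.35, adjusted p = 0.0263), and Slfn4 (0.53, adjusted p = 0.0328). The Bst2 call was lost without 12 h replicates 1, 2 or 4 or 24 h replicate 4 (adjusted p up to 0.107) and the Slfn4 call without 12 h replicates 1, 3 or 4 or 24 h replicates 1, 2 or 3 (up to 0.114). That of Slfn1 was lost without both libraries of replicate 2 (adjusted p = 0.0546). The Slfn genes are also close copies of each other.

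Of 26 genes of the NF-kB pathway and its feedback, 15 fell (57.7%) and 2 rose (7.69%), with a median of -0.36. Of 22 inhibitors of cytokine signalling and mRNA decay factors 12 fell (54.55%) and 3 rose (13.6%), also with a median of -0.36. Of all genes, 18.8% were called lower and 18.1% higher. Tnip3, an inhibitor that is itself induced by NF-kB, fell from 703, 612, 574 and 550.0 CPM to 238, 248, 217 and 181 CPM (log2 fold change -1.45, SE 0.112, adjusted p = 7.90e-10). Nfkb2, which encodes the p100 precursor, fell from 118 ± 21.6 CPM at 12 h to 57.8 ± 2.55 CPM at 24 h (-1.01, adjusted p = 1.04e-07). The I-kappa-B family genes Nfkbie (-0.86, adjusted p = 5.01e-07) and Nfkbiz (-0.66, adjusted p = 4.32e-06) fell with it. Among the brakes on cytokine receptors, Socs1 stood at 126, 116, 139.8 and 84.3 CPM at 12 h and 21.9, 21.5, 26.1 and 44.8 CPM at 24 h, a 4.00-fold fall in which KO replicate 4 changed least (log2 fold change -2.0, SE 0.179, adjusted p = 1.94e-08). Socs3 fell from 414 ± 57.4 CPM at 12 h to 163 ± 9.24 CPM at 24 h (-1.33, adjusted p = 1.86e-09). The MAP kinase phosphatases Dusp1 (-1.52, adjusted p = 7.37e-09) and Dusp2 fell too. Dusp2 was at 137, 146, 147 and 64.9 CPM at 12 h and 24.6, 26.9, 28.1 and 19.7 CPM at 24 h, lowest at both times in KO replicate 4 (log2 fold change -2.31, SE 0.241, adjusted p = 5.82e-07).

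A few members of these lists ran the other way. Zfp36l1, an mRNA decay factor of the tristetraprolin family, rose from 35.1, 40.3, 23.3 and 33.6 CPM to 108, 87.4, 86.9 and 60.4 CPM (log2 fold change 1.38, SE 0.169, adjusted p = 9.67e-07). Dusp4, a further MAP kinase phosphatase, rose from 4.74, 4.86, 4.76 and 7.38 CPM to 11.2, 14.7, 11.1 and 25.2 CPM, highest at both times in KO replicate 4 (log2 fold change 1.55, SE 0.249, adjusted p = 3.11e-05). Zc3h12d rose from 59.1 ± 12.6 CPM at 12 h to 84.4 ± 5.43 CPM at 24 h (0.53, adjusted p = 0.0013). The 2 NF-kB genes that rose were the kinase gene Chuk (0.42, adjusted p = 0.0251) and the ubiquitin ligase gene Birc2 (0.35, adjusted p = 0.0421). Neither call held without each library. That of Chuk was lost without 12 h replicate 3 or 24 h replicates 1 or 2 (adjusted p up to 0.124) and that of Birc2 without 12 h replicates 2, 3 or 4 or 24 h replicates 1, 2 or 3 (up to 0.18).

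In the linear ubiquitin machinery 5 of 16 genes fell and 2 rose, shares of 31.3% and 12.5% against 18.8% and 18.1% of all genes. Tax1bp1, a ubiquitin-binding adaptor, fell from 1469 ± 282 CPM at 12 h to 955 ± 50.95 CPM at 24 h (-0.61, adjusted p = 0.000129). Vcp, the segregase that extracts ubiquitylated proteins, fell from 496 ± 55.5 CPM at 12 h to 366 ± 4.33 CPM at 24 h (-0.42, adjusted p = 0.000321). Ikbkg, which encodes the linear chain reader NEMO, fell from 112 ± 4.89 CPM at 12 h to 87.2 ± 3.6 CPM at 24 h (-0.35, adjusted p = 0.000581). The others that fell were Sqstm1 (-0.32, adjusted p = 0.0029) and Cyld, the other deubiquitinase that cuts linear chains (-0.43, adjusted p = 0.0235). Besides Otulin, the pseudoenzyme gene Otulinl rose (0.36, adjusted p = 0.0311). The Cyld call was lost without 12 h replicate 3 or 24 h replicates 1, 2 or 4 (adjusted p up to 0.0873) and the Otulinl call without 12 h replicates 1, 2 or 3 or 24 h replicates 1 or 3 (up to 0.149).

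Several receptors and adaptors upstream of NF-kB also fell. Of 27 genes of Toll-like receptor signalling, 10 fell (37.0%) and 2 rose (7.41%), against 18.8% and 18.1% of all genes (median -0.15). Tlr2, the receptor for bacterial lipoproteins, stood at 56.1, 54.3, 85.7 and 59.1 CPM at 12 h and 23.4, 23.96, 26.9 and 36.5 CPM at 24 h, highest at 12 h in KO replicate 3 (log2 fold change -1.18, SE 0.158, adjusted p = 3.78e-06). Tlr3 (-1.3, adjusted p = 5.73e-07) and Tlr7 (-0.81, adjusted p = 8.51e-07), sensors of RNA in endosomes, and the adaptor Myd88 (-0.79, adjusted p = 1.04e-07) also fell. Those that rose were Ticam2, an adaptor that links Toll-like receptor 4 to TRIF, from 22.9, 24.5, 24.6 and 22.9 CPM to 40.3, 37.7, 41.3 and 39.05 CPM (log2 fold change 0.75, SE 0.108, adjusted p = 6.93e-06), and Irak1 (0.41, adjusted p = 0.000477). Of 28 immediate early and AP-1 factors, 7 fell (25%) and 5 rose (17.9%), against 18.8% and 18.1% of all genes. Fosl2 (-1.16, adjusted p = 6.70e-07) and Batf (-0.95, adjusted p = 1.86e-06) were among those that fell. Klf10 (1.29, adjusted p = 3.48e-06), Egr1 (1.26, adjusted p = 0.000277), Jund (0.54, adjusted p = 0.000141), Klf2 (0.48, adjusted p = 0.00236) and Nr4a2 (0.71, adjusted p = 0.0152) rose, and the Nr4a2 call was lost without 12 h replicate 4 or 24 h replicate 2 (adjusted p up to 0.0684).

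Genes of antigen presentation and costimulation did not move as one. Of 14 genes of MHC class II and costimulation, 4 fell (28.6%) and 1 rose, and the rise was lost without 12 h replicates 1, 2 or 3 or 24 h replicate 4. Cd40, the receptor for the T cell ligand CD40L, stood at 775, 568, 766 and 627 CPM at 12 h and 169, 188, 176 and 168 CPM at 24 h, a 3.86-fold fall (log2 fold change -1.95, SE 0.0946, adjusted p = 7.79e-13). Cd86, a costimulatory ligand, fell from 145 ± 15.3 CPM at 12 h to 92.99 ± 13.5 CPM at 24 h (-0.62, adjusted p = 5.66e-05). Ciita, the master regulator of MHC class II genes, fell from 19.2 ± 2.47 CPM at 12 h to 7.96 ± 1.67 CPM at 24 h (-1.24, adjusted p = 9.09e-06). In MHC class I presentation, 8 of 18 genes fell and 6 rose. Those that fell included the immunoproteasome subunit gene Psmb10, from 240.5, 231, 275 and 297 CPM to 101, 106, 102 and 132 CPM (log2 fold change -1.22, SE 0.1, adjusted p = 1.75e-09). Those that rose included the class Ib gene H2-Q7, from 89.2, 92.8, 94.97 and 74.3 CPM to 168, 159.5, 152 and 166 CPM (log2 fold change 0.89, SE 0.113, adjusted p = 1.26e-06). H2 genes are close copies, so tags may be shared among them. Without the 12 h library of replicate 3 the number of class I members called higher was 3.

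Of 37 genes of cell death and the inflammasome, 14 fell (37.8%) and 5 rose (13.5%), against 18.8% and 18.1% of all genes (median -0.10). Casp1, the inflammasome protease, stood at 716, 707, 710.4 and 701 CPM at 12 h and 457, 474, 434 and 470.3 CPM at 24 h, tight at both times (log2 fold change -0.61, SE 0.0661, adjusted p = 1.24e-07). Bid, which links death receptors to mitochondria, fell (-0.86, adjusted p = 4.18e-09). Bbc3, which encodes the BH3-only protein PUMA, rose from 37.1, 34.4, 52.1 and 26.99 CPM to 96.99, 116, 90.7 and 88.2 CPM, 2.63-fold and without overlap (log2 fold change 1.39, SE 0.147, adjusted p = 8.77e-08). Bax, the effector that PUMA activates, rose from 12.2 ± 2.51 CPM at 12 h to 18.1 ± 2.1 CPM at 24 h (0.59, adjusted p = 0.00408). The Bax call was lost without both libraries of replicate 2 (adjusted p = 0.0735). Bcl2, which restrains it, rose from 20.6 ± 0.643 CPM at 12 h to 34.8 ± 7.29 CPM at 24 h (0.77, adjusted p = 0.000178). The other members called higher were Bcl2l1 (0.36, adjusted p = 0.0217) and Naip5 (0.37, adjusted p = 0.032). The Bcl2l1 call was lost without 12 h replicates 1 or 2 or 24 h replicates 2 or 4 (adjusted p up to 0.109) and that of Naip5 without 12 h replicates 1, 3 or 4 or 24 h replicates 2 or 3 (up to 0.14). The count of cell death genes called higher was 3 without the 12 h library of replicate 1 or the 24 h library of replicate 2, and 2 without both libraries of replicate 2.

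Of 17 genes of arginine, nitric oxide and polyamines, 4 fell (23.5%) and 3 rose (17.6%), against 18.8% and 18.1% of all genes. Nos2, the inducible nitric oxide synthase, stood at 674, 478, 436 and 584 CPM at 12 h and 184, 244, 186 and 204 CPM at 24 h (log2 fold change -1.39, SE 0.159, adjusted p = 6.67e-07). Slc7a2, which brings in its substrate arginine, was at 378, 313, 464 and 176 CPM at 12 h and 62.9, 69.01, 79.2 and 58.2 CPM at 24 h, a 4.89-fold fall in which the 12 h library of replicate 4 was lowest (log2 fold change -2.29, SE 0.333, adjusted p = 4.96e-05). Gch1, the first enzyme of its cofactor tetrahydrobiopterin, fell from 188 ± 12.4 CPM at 12 h to 85.2 ± 12.6 CPM at 24 h (-1.13, adjusted p = 2.40e-09). Sms (-0.39, adjusted p = 0.00665) was the other that fell, a call lost without both libraries of replicate 1 (adjusted p = 0.0806) or of replicate 3 (0.113). Amd1 (0.49, adjusted p = 0.000772), Asl, which regenerates arginine (0.69, adjusted p = 0.00116), and Sat1 (0.38, adjusted p = 0.00209) rose. Acod1, which makes the antimicrobial metabolite itaconate, stood at 3401, 3141, 3272 and 3787 CPM at 12 h and 2236, 2454, 2189 and 2611 CPM at 24 h and fell by 1.42-fold (log2 fold change -0.50, SE 0.0991, adjusted p = 0.000304). Of 15 genes of the prostaglandin and leukotriene pathway, 6 fell (40%) and 3 rose (20%), against 18.8% and 18.1% of all genes. Without both libraries of replicate 1 or of replicate 2 the number called lower was 3. Ptgs2, the inducible cyclooxygenase, fell from 249, 192, 136 and 242 CPM to 37.2, 51.3, 36.5 and 74.4 CPM (log2 fold change -2.02, SE 0.207, adjusted p = 3.61e-07). Pla2g4a, which releases its substrate, fell from 86.9 ± 7.92 CPM at 12 h to 26.7 ± 4.64 CPM at 24 h (-1.68, adjusted p = 7.16e-10). On the leukotriene branch, Lta4h, which makes leukotriene B4, rose from 28.7, 28.97, 16.8 and 22.4 CPM to 65.05, 69.2, 56.7 and 52.5 CPM (log2 fold change 1.34, SE 0.138, adjusted p = 6.07e-08), with Alox5ap (0.38, adjusted p = 0.000717). The third that rose was the prostacyclin receptor gene Ptgir (0.61, adjusted p = 0.000245).

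**Figure D4:**
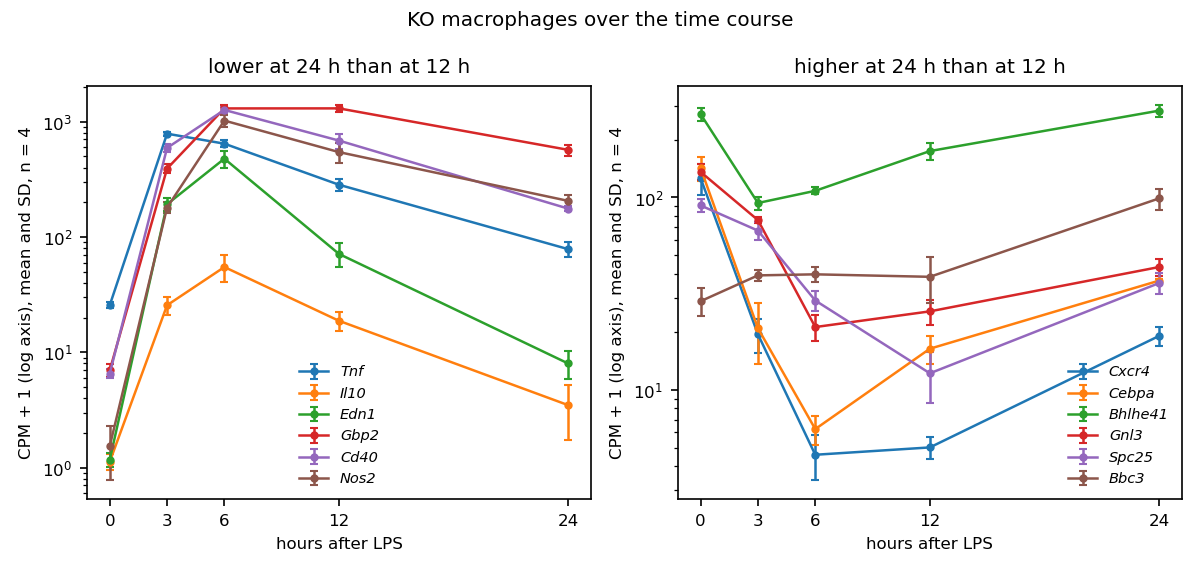
KO means ± SD (n = 4) of CPM + 1 on a log axis at 0, 3, 6, 12 and 24 h after LPS for 6 genes lower (left) and 6 genes higher (right) at 24 h than at 12 h. Tnf is highest at 3 h, the other 5 genes on the left rise to 6 h or 12 h and then fall, and Cxcr4, Cebpa and Gnl3 on the right fall to 6 h and rise after it.

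Of 21 glycolysis genes 13 fell (61.9%) and none rose (median -0.42), against 18.8% and 18.1% of all genes. Slc2a1, which encodes the glucose transporter GLUT1, stood at 156, 153, 197 and 137 CPM at 12 h and 53.04, 64.3, 68.05 and 68.0 CPM at 24 h (log2 fold change -1.33, SE 0.113, adjusted p = 3.12e-09). Pfkp, a phosphofructokinase, fell from 133, 109, 169.9 and 113 CPM to 52.9, 53.03, 52.05 and 61.9 CPM (log2 fold change -1.24, SE 0.116, adjusted p = 1.37e-08). Hk1 (-0.85, adjusted p = 1.76e-07) and Aldoc (-1.33, adjusted p = 2.67e-07) fell with it. The abundant late enzymes Ldha (-0.15, adjusted p = 0.186) and Pgk1 (-0.18, adjusted p = 0.161) were not called. Hypoxia-inducible genes, which like those of glycolysis include targets of HIF-1, were divided, with 9 of 20 lower (45%) and 6 higher (30%). Pdk1, which keeps pyruvate out of the mitochondria, fell (-1.21, adjusted p = 5.15e-08). The mitophagy receptor gene Bnip3 fell from 130.3, 104, 139.8 and 107 CPM to 57.1, 50.1, 59.5 and 49.99 CPM (log2 fold change -1.13, SE 0.117, adjusted p = 6.27e-08). Ak4, a mitochondrial adenylate kinase, was among the 10 largest falls, from 24.8 ± 8.05 CPM at 12 h to 4.38 ± 0.689 CPM at 24 h (-2.48, adjusted p = 1.39e-08). Vegfa, the endothelial growth factor, rose from 68.3, 59.1, 54.6 and 53.98 CPM to 104, 119, 114 and 115 CPM (log2 fold change 0.95, SE 0.116, adjusted p = 7.30e-07). Hilpda, a lipid droplet protein, rose from 148 ± 28.8 CPM at 12 h to 245 ± 45.8 CPM at 24 h (0.75, adjusted p = 0.00114).

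Genes of mitochondrial metabolism were divided. Of 22 genes of itaconate synthesis and the TCA cycle, 7 rose (31.8%) and 2 fell (9.09%), against 18.1% and 18.8% of all genes (median 0.18). The 2 that fell were Acod1 and Suclg1. Suclg1 fell by 1.16-fold (-0.21, adjusted p = 0.0302), and its call was lost without 24 h replicates 1, 2 or 3 (adjusted p up to 0.0814). Mdh2, the malate dehydrogenase, stood at 164, 149.9, 188 and 203 CPM at 12 h and 209.5, 239.6, 209 and 282 CPM at 24 h (log2 fold change 0.43, SE 0.103, adjusted p = 0.00174). The Mdh2 call was lost without both libraries of replicate 2 (adjusted p = 0.0559). Dlst rose from 77.01 ± 6.11 CPM at 12 h to 98.8 ± 6.98 CPM at 24 h (0.37, adjusted p = 0.00191). Without both libraries of replicate 2, 2 genes of this list were called higher. Of 13 mitochondrially encoded transcripts 8 fell and none rose (median -0.50), with 7 to 11 called lower when 1 library was left out. For KO replicates 1 to 4 their median change, on the scale of log2(CPM + 1), was -0.58, -0.51, -0.02 and -0.82. The complex I gene mt-Nd3 fell from 309.8, 225, 171 and 362 CPM to 74.1, 47.3, 53.7 and 60.6 CPM (log2 fold change -2.16, SE 0.219, adjusted p = 4.18e-07), and mt-Cytb from 1201 ± 258 CPM at 12 h to 579.5 ± 66.3 CPM at 24 h (-1.03, adjusted p = 3.36e-06). Of 72 nuclear genes of oxidative phosphorylation 8 fell and 2 rose, while 62 were not called. Their shares of 11.1% and 2.78% were below the 18.8% and 18.1% of all genes. The count called lower ranged from 5 without the 12 h library of replicate 4 or the 24 h library of replicate 3 to 14 without the 12 h library of replicate 3 and 19 without the 24 h library of replicate 4.

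Of 24 genes of cholesterol synthesis and uptake, 16 fell and none rose (median -0.88). Cyp51, which demethylates lanosterol, stood at 178, 212, 177 and 181 CPM at 12 h and 47.6, 64.6, 55.3 and 75.6 CPM at 24 h, 3.04-fold lower (log2 fold change -1.6, SE 0.117, adjusted p = 2.94e-10). Its level had been 375 CPM at 0 h and 309.5 CPM at 6 h, so that it was lower at 24 h than at any earlier time. Msmo1, the next oxidase of the pathway, stood at 303, 304, 286 and 291 CPM at 12 h and 146, 163, 154 and 166 CPM at 24 h (log2 fold change -0.90, SE 0.0701, adjusted p = 8.90e-10). Of 20 LXR targets and genes of fatty acid synthesis, 6 fell (30%) and 4 rose (20%), against 18.8% and 18.1% of all genes. Fasn, the fatty acid synthase, fell from 20.6 ± 3.34 CPM at 12 h to 10.1 ± 0.896 CPM at 24 h (-1.01, adjusted p = 9.34e-07). Elovl6, an elongase, rose from 2.24, 2.43, 1.75 and 2.04 CPM to 6.00, 5.55, 5.67 and 7.07 CPM (log2 fold change 1.52, SE 0.199, adjusted p = 2.02e-06). The desaturase gene Fads1 rose from 37.7 ± 10.4 CPM at 12 h to 69.96 ± 11.4 CPM at 24 h (0.91, adjusted p = 1.63e-05), as did Elovl5 (0.49, adjusted p = 0.000116). Nr1h3, which encodes the oxysterol receptor LXR alpha, was the other that rose (0.55, adjusted p = 0.000677). The fatty acid carrier Fabp5 was at 1385, 1347, 1223 and 1511 CPM at 12 h and 2242, 2211, 1721 and 2395 CPM at 24 h (log2 fold change 0.67, SE 0.0998, adjusted p = 1.26e-05). With Hilpda, Dgat1 (0.71, adjusted p = 0.00206) and Fabp4 (0.46, adjusted p = 0.0252) it made up the 4 of 12 lipid storage genes that rose, and none fell. The Fabp4 call was lost without 12 h replicates 3 or 4 or 24 h replicates 1 or 2 (adjusted p up to 0.0918) and the Dgat1 call without both libraries of replicate 2 (adjusted p = 0.0593). A sterol element searched as TCACNCCAC was present in the window of 1 of 17 cholesterol genes, Hmgcs1 (5.88%, against 1.24% of all windows).

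Of 15 heat shock genes 8 fell and none rose (median -0.40), with 1 called higher without the 24 h library of replicate 4. Hspa8, the constitutive HSP70, stood at 1464, 1546, 1362 and 1634 CPM at 12 h and 515, 573, 526 and 570.4 CPM at 24 h, 2.72-fold lower with tight groups (log2 fold change -1.44, SE 0.0742, adjusted p = 1.50e-12). Its co-chaperone Dnajb1 stood at 64.8, 70.5, 68.4 and 70.5 CPM at 12 h and 22.6, 22.2, 24.3 and 22.1 CPM at 24 h (log2 fold change -1.57, SE 0.091, adjusted p = 7.77e-12). A further co-chaperone gene, Dnaja1, fell from 681 ± 45.9 CPM at 12 h to 318 ± 23.8 CPM at 24 h (-1.08, adjusted p = 1.55e-10). The inducible Hspa1a, which shares nearly all of its sequence with a neighbouring copy and whose value is therefore uncertain, fell from 226 ± 46.2 CPM at 12 h to 60.7 ± 12.6 CPM at 24 h (-1.88, adjusted p = 8.69e-09). A heat shock element searched as GAANNTTCNNGAA was present in the windows of 4 of 11 members (36.4%, against 0.603% of all windows), which were Chordc1, Hspd1, Hspe1 and Hsph1. The windows of Dnajb1, Dnaja1 and Hspa1a did not hold it, and Hspa8 was not among the 11 members with a window. The metallothionein gene Mt2 was at 124, 131, 145 and 139.5 CPM at 12 h and 36.6, 39.3, 30.8 and 38.2 CPM at 24 h (log2 fold change -1.88, SE 0.128, adjusted p = 9.37e-11). Mt1 fell from 160.1 ± 25.97 CPM at 12 h to 67.2 ± 10.2 CPM at 24 h (-1.23, adjusted p = 3.38e-07). They were 2 of 9 falls among 16 genes of iron and metal handling, in which 4 genes rose. Those were the ferrireductase gene Steap3 (1.03, adjusted p = 1.38e-05), Ncoa4, which delivers ferritin to lysosomes (0.48, adjusted p = 0.00103), Slc39a10 (0.49, adjusted p = 0.00259) and Slc11a1 (0.59, adjusted p = 0.00337), whose call was lost without both libraries of replicate 3 (adjusted p = 0.0511). Psat1 fell from 78.8 ± 12.6 CPM at 12 h to 34.2 ± 4.79 CPM at 24 h (-1.18, adjusted p = 1.95e-08) and Phgdh from 12.8 ± 2.59 CPM at 12 h to 3.83 ± 1.35 CPM at 24 h (-1.68, adjusted p = 9.68e-07), both of which encode enzymes of serine synthesis. The stress factor gene Ddit3, which encodes CHOP, rose from 94.5, 88.3, 127 and 116 CPM to 182, 148, 163 and 149.6 CPM (log2 fold change 0.61, SE 0.108, adjusted p = 8.79e-05).

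Of 18 matrix proteases and inhibitors 12 fell and 2 rose (median -0.69). Mmp13, a collagenase, stood at 1255, 1143, 1061 and 1115 CPM at 12 h and 261, 304, 282 and 297 CPM at 24 h, 3.96-fold lower (log2 fold change -1.98, SE 0.117, adjusted p = 9.81e-12). The membrane protease gene Mmp25 fell from 111 ± 14.7 CPM at 12 h to 39.2 ± 8.00 CPM at 24 h (-1.49, adjusted p = 7.06e-09). Plau, which encodes urokinase, rose (0.59, adjusted p = 0.0156), as did Adam8 (0.56, adjusted p = 2.94e-05). The Plau call was lost without 12 h replicate 2 or 24 h replicate 3 (adjusted p up to 0.0611). A further 4 of the 10 largest falls belonged to no list. Upp1, which breaks down uridine, fell from 40.3 ± 6.85 CPM at 12 h to 7.26 ± 1.19 CPM at 24 h (-2.45, adjusted p = 2.25e-10). The transcription factor gene Zeb1 fell from 20.1 ± 6.42 CPM at 12 h to 3.78 ± 0.367 CPM at 24 h (-2.39, adjusted p = 2.85e-09). The receptor gene Slamf1 fell from 39.2 ± 3.22 CPM at 12 h to 7.5 ± 1.43 CPM at 24 h (-2.38, adjusted p = 5.07e-11), and the actin-binding protein gene Cnn3 from 58.6 ± 17.6 CPM at 12 h to 11.4 ± 2.18 CPM at 24 h (-2.34, adjusted p = 5.54e-09). All 4 had been near 0 before LPS, with 0 h means of 0.231, 0.64, 0.412 and 0.288 CPM.

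Of 12 alternative activation genes 7 fell (58.3%) and none rose (median -0.82). Of 20 macrophage identity genes 4 fell (20%) and 1 rose (5%), against 18.8% and 18.1% of all genes. Mrc1, the mannose receptor, belongs to both lists and stood at 519.6, 449.9, 472 and 311 CPM at 12 h and 141, 133, 128 and 121 CPM at 24 h (log2 fold change -1.73, SE 0.132, adjusted p = 7.67e-10), while its level was 927 CPM at 0 h and 945 CPM at 6 h. Il4ra, the interleukin-4 receptor, fell from 789.5 ± 186 CPM at 12 h to 323 ± 57.1 CPM at 24 h (-1.27, adjusted p = 1.25e-05). Ccl22, a chemokine, fell from 18.3 ± 4.36 CPM at 12 h to 4.65 ± 0.995 CPM at 24 h (-1.95, adjusted p = 1.79e-06). The transcription factor gene Maf fell from 731, 703, 690.1 and 699 CPM to 406, 373, 434 and 396 CPM (log2 fold change -0.80, SE 0.0785, adjusted p = 2.85e-08). Csf1r, the M-CSF receptor, fell by 1.18-fold with overlapping values (log2 fold change -0.23, SE 0.076, adjusted p = 0.018), a call lost without 24 h replicate 1 (adjusted p = 0.0675). The Fc receptor gene Fcgr1 fell by 1.19-fold (-0.24, adjusted p = 0.0444), a call lost without 12 h replicates 1, 2 or 4 or 24 h replicates 1, 2, 3 or 4 (up to 0.084). Without 24 h replicate 1 the number of identity genes called lower was 2, and with the replicate number as a block it was 8. Cebpa, a factor that sets the myeloid programme, was the identity gene that rose, from 13.7, 12.6, 16.8 and 18.3 CPM to 36.98, 35.7, 35.04 and 36.02 CPM (log2 fold change 1.25, SE 0.192, adjusted p = 2.21e-05). It had fallen from 141 CPM at 0 h to 5.25 CPM at 6 h.

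The largest rises were in genes that had gone down first: of the 10 largest, all but Taf9 had been called lower at 6 h than at 0 h. Cxcr4, the receptor for CXCL12, stood at 4.24, 4.25, 4.51 and 3.06 CPM at 12 h and 15.1, 17.97, 20.4 and 18.7 CPM at 24 h, 4.51-fold higher (log2 fold change 2.17, SE 0.213, adjusted p = 2.63e-08), after 125 CPM at 0 h and 3.59 CPM at 6 h. The palmitoyltransferase gene Zdhhc14 (2.63, adjusted p = 2.43e-08) and the RING finger gene Rnf150 (2.44, adjusted p = 7.53e-09) were further members. Nav2, a neuron navigator gene, rose from 14.2, 15.2, 13.3 and 12.5 CPM to 80.7, 74.1, 64.2 and 38.9 CPM, with KO replicate 4 the lowest at 24 h (log2 fold change 2.23, SE 0.191, adjusted p = 5.71e-09). Rragd, a GTPase that brings mTORC1 to the lysosome, rose from 8.47, 7.29, 6.77 and 7.64 CPM to 41.4, 29.3, 29.6 and 31.8 CPM (log2 fold change 2.15, SE 0.164, adjusted p = 6.59e-10). Gadd45a (1.98, adjusted p = 3.35e-09) and Phlda3 (2.63, adjusted p = 1.79e-07), both known, like Bbc3, as targets of p53, were also among the 10. Sik1, a kinase that restrains CRTC coactivators, was at 6.73, 7.9, 8.02 and 5.09 CPM at 12 h and 34.1, 34.6, 34.4 and 27.6 CPM at 24 h (log2 fold change 2.24, SE 0.218, adjusted p = 2.26e-08), above its 6.63 CPM at 0 h. The histone gene Hist1h4i rose from 4.18 ± 0.597 CPM at 12 h to 18.4 ± 3.39 CPM at 24 h (2.16, adjusted p = 1.65e-08), although histone genes are close copies of each other. Taf9 rose from values that differed widely among libraries, 0.748, 10.9, 15.03 and 1.78 CPM at 12 h, to 32.3, 19.3, 19.6 and 39.2 CPM at 24 h (log2 fold change 1.95, SE 0.618, adjusted p = 0.0206). Its call was lost without 12 h replicates 1 or 4 or 24 h replicate 4 (adjusted p up to 0.0579).

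The circadian clock genes had the highest median of the lists, 0.68, with 8 of 14 members higher and none lower (1 lower without the 12 h library of replicate 4 or the 24 h library of replicate 2). Bhlhe41, a repressor of the clock's activators, stood at 189, 173, 148 and 183 CPM at 12 h and 273, 301, 257 and 296 CPM at 24 h (log2 fold change 0.72, SE 0.0856, adjusted p = 5.49e-07). Its partner Bhlhe40 stood at 26.7, 24.5, 27.6 and 19.6 CPM at 12 h and 41.8, 45.3, 36.2 and 40.9 CPM at 24 h (log2 fold change 0.75, SE 0.12, adjusted p = 2.85e-05). Rora, which activates Arntl, rose from 27.8 ± 4.21 CPM at 12 h to 49.02 ± 3.78 CPM at 24 h (0.83, adjusted p = 1.54e-05). Per2, a core repressor, rose from 8.26 ± 1.25 CPM at 12 h to 18.2 ± 2.01 CPM at 24 h (1.16, adjusted p = 7.04e-05), above its 5.12 CPM at 0 h. The sources used here do not give the hour of the day at collection, so clock time and time after LPS cannot be told apart. Autophagy genes rose in 11 of 24 cases (45.8%) and fell in 3 (12.5%), against 18.1% and 18.8% of all genes. Gabarapl1, which coats autophagosomes, was at 63.05, 56.5, 61.9 and 75.6 CPM at 12 h and 90.4, 108, 90.9 and 111 CPM at 24 h (log2 fold change 0.66, SE 0.0951, adjusted p = 8.08e-06). Atg7 (0.72, adjusted p = 8.29e-05) and Atg13 (0.56, adjusted p = 0.00196), which act earlier in their assembly, rose. The 3 that fell were the cargo receptors Tax1bp1 and Sqstm1, given above, and Atg3 (-0.25, adjusted p = 0.0365), whose call was lost without 12 h replicates 1 or 4 or 24 h replicates 2 or 3 (adjusted p up to 0.0911). The count of autophagy genes called higher was 7 without the 12 h library of replicate 4 and 6 without the 24 h library of replicate 1, and 5 without both libraries of replicate 2.

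Of 38 genes of DNA replication and nucleotide synthesis 16 rose (42.1%) and 4 fell (10.5%), against 18.1% and 18.8% of all genes, while 18 were not called (median 0.41). Of 26 ribosome biogenesis genes 8 rose (30.8%), none fell and 18 were not called (median 0.26). Cdt1, which licenses replication origins, stood at 91.2, 75.4, 98.7 and 94.7 CPM at 12 h and 117, 120.0, 128 and 130.3 CPM at 24 h (log2 fold change 0.48, SE 0.0947, adjusted p = 0.000309). E2f2, an S phase transcription factor, rose from 6.48, 10.9, 7.77 and 7.38 CPM to 18.0, 26.2, 16.8 and 19.5 CPM (log2 fold change 1.3, SE 0.172, adjusted p = 2.24e-06). Pola1, the catalytic subunit of DNA polymerase alpha, rose from 7.62 ± 2.36 CPM at 12 h to 14.9 ± 4.59 CPM at 24 h (0.98, adjusted p = 0.000581). Of the 4 that fell, Mcm10 went from 12.2 ± 3.29 CPM at 12 h to 6.61 ± 1.02 CPM at 24 h (-0.87, adjusted p = 0.000726). The others were Mcm6 (-0.37, adjusted p = 0.0106), Tyms (-0.63, adjusted p = 0.0128) and Ccne1 (-0.53, adjusted p = 0.0411). The Tyms call was lost without 12 h replicate 2 (adjusted p = 0.102) and the Ccne1 call without 12 h replicates 1 or 4 or 24 h replicates 1 or 2 (up to 0.182). That of Mcm6 was lost without both libraries of replicate 2 (adjusted p = 0.0745) or of replicate 3 (0.0946). The count of replication genes called higher was 9 without the libraries of replicate 1 and 10 without those of replicate 3. In the nucleolus, Gnl3, which encodes nucleostemin, stood at 18.9, 27.6, 25.1 and 26.7 CPM at 12 h and 44.5, 46.1, 43.3 and 35.9 CPM at 24 h (log2 fold change 0.80, SE 0.123, adjusted p = 1.68e-05). Nop14, of the small subunit processome, stood at 27.7, 26.7, 27.1 and 23.4 CPM at 12 h and 43.4, 36.8, 48.8 and 46.8 CPM at 24 h (log2 fold change 0.76, SE 0.123, adjusted p = 3.33e-05). Wdr12 rose from 6.54 ± 0.805 CPM at 12 h to 12.8 ± 2.73 CPM at 24 h (0.99, adjusted p = 0.000116). Mybbp1a rose from 24.7 ± 3.96 CPM at 12 h to 33.4 ± 4.94 CPM at 24 h with overlapping values (0.46, adjusted p = 0.00404), a call lost without both libraries of replicate 4 (adjusted p = 0.0779). Without the 12 h library of replicate 2, 5 biogenesis genes were called higher and 2 lower. Without the 24 h library of replicate 4, 3 were called lower, and without the 12 h library of replicate 3 or 4, 1 was.

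Of 35 mitosis genes, 14 rose (40%) and 6 fell (17.1%), against 18.1% and 18.8% of all genes (median 0.26). The kinetochore gene Spc25 stood at 9.22, 13.6, 14.8 and 7.13 CPM at 12 h and 33.9, 37.1, 29.2 and 39.4 CPM at 24 h (log2 fold change 1.65, SE 0.161, adjusted p = 2.54e-08). Cenpa, the centromeric histone, was at 15.9, 20.1, 9.02 and 21.4 CPM at 12 h and 41.2, 70.1, 42.3 and 42.9 CPM at 24 h, highest in KO replicate 2 at 24 h (log2 fold change 1.57, SE 0.195, adjusted p = 1.63e-06). Ccnb2, a mitotic cyclin, stood at 4.49, 7.29, 4.76 and 6.11 CPM at 12 h and 1.55, 0.444, 0.405 and 1.85 CPM at 24 h (log2 fold change -2.32, SE 0.323, adjusted p = 4.51e-06). Ube2c, which serves the anaphase-promoting complex, fell from 10.6 ± 1.37 CPM at 12 h to 3.33 ± 1.34 CPM at 24 h (-1.63, adjusted p = 1.64e-06). The proliferation marker Mki67 was at 34.6, 45.2, 48.6 and 36.7 CPM at 12 h and 46.9, 39.7, 45.97 and 51.0 CPM at 24 h, overlapping and not called (log2 fold change 0.17, SE 0.129, adjusted p = 0.324), below its 206 CPM at 0 h. The count of mitosis genes called higher was 7 without the 24 h library of replicate 4, 8 without the 12 h library of replicate 3 and 7 in a fit of the 8 libraries alone. Of 79 ribosomal protein genes 36 fell and none rose (median -0.30). Rpl10a fell from 220.3, 216, 241 and 296 CPM to 116, 130.5, 99.6 and 172 CPM (log2 fold change -0.89, SE 0.131, adjusted p = 1.08e-05). Rps13 fell from 589.5 ± 82.6 CPM at 12 h to 405 ± 59.9 CPM at 24 h (-0.52, adjusted p = 0.000489). The count of ribosomal protein genes called lower was 22 without the 12 h library of replicate 4, 21 without the 24 h library of replicate 3 and 58 without the 24 h library of replicate 4. The many processed copies of these genes can share their tags.

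WT macrophages made a step of the same kind over the same hours. Of 12151 genes tested in WT, 2317 were called higher (19.1%) and 2493 lower (20.5%), 39.6% in all. Of genes called in KO and tested in both genotypes, 77.1% were called in WT, and of those called in WT 71.6% were called in KO. Of 3399 genes called in both, 3398 had the same direction. The step of Tnf was -1.85 in KO and -1.83 in WT on the log2 scale, that of Edn1 -3.32 and -3.5, and that of Cxcr4 2.17 and 2.15. In the test of the difference between the steps, edgeR called 0 of 11486 genes (0%), while 373 (3.25%) had an unadjusted p under 0.05, 188 with the KO step above the WT step and 185 below. DESeq2 called 1 gene and limma-voom none. The gene was Vegfa, which rose by 0.95 in KO and by 1.67 in WT, a difference of -0.73 (SE 0.14) with an adjusted p of 0.44 in edgeR and of 0.0115 in DESeq2.

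The growth lists had the largest median differences of the lists with at least 10 genes tested. Among replication genes the KO step exceeded the WT step in 33 of 37 (median difference 0.37 on the log2 scale), against 47.7% of all genes (median -0.01). The difference had an unadjusted p under 0.05 in 8 of them, each with the KO step above, against 1.64% of all genes. Among ribosome biogenesis genes the KO step was above in 24 of 25 (median difference 0.24), 5 of them at an unadjusted p under 0.05, Gnl3 (0.65, SE 0.172, unadjusted p of 0.00117), Wdr12 (0.64), Nop56 (0.58), Nop58 (0.57) and Nop14 (0.39). In mitosis it was above in 24 of 31 (median difference 0.22), with Top2a alone at an unadjusted p under 0.05 (0.59, unadjusted p of 0.0402). On the other side, the KO step was above the WT step in only 5 of 57 type 1 interferon genes (median difference -0.14) and 3 of 17 GTPases (-0.18), with 3 and 1 of them at an unadjusted p under 0.05 and the KO step below. Of the hypoxia-inducible genes, it was above in 2 of 18 (-0.18), with 5, Vegfa among them, at an unadjusted p under 0.05 and the KO step below. Of all 11486 genes, 185 were so. This lean was not particular to these lists. The KO step was above in 3 of 22 NRF2 targets (-0.16), 4 of 19 cytokines and growth factors (-0.16) and 5 of 21 glycolysis genes (-0.04, 4 at an unadjusted p under 0.05 and below). In matrix proteases and inhibitors it was above in 13 of 18 (0.08). None of these genes passed the adjusted threshold. The lists were chosen with earlier results of these data known. In WT, 6 replication genes rose and 9 fell (median -0.05), and 2 biogenesis genes rose and 3 fell (median -0.13). For replicates 1 to 4 the median change of the biogenesis genes, on the scale of log2(CPM + 1), was 0.30, 0.17, 0.20 and 0.27 in KO and -0.12, -0.06, -0.11 and -0.15 in WT. That of the replication genes was 0.46, 0.14, 0.25 and 0.36 in KO and 0.04, -0.05, -0.13 and -0.08 in WT. That of the mitosis genes overlapped between the genotypes, with -0.18 for KO replicate 2 and 0.38 to 0.47 for the other 3, against -0.12 to 0.10 in WT. Leaving out 1 of the 16 libraries at a time gave median differences of 0.24 (without KO 24 h replicate 4) to 0.46 for replication, 0.15 (without KO 12 h replicate 2) to 0.34 for biogenesis and 0.15 to 0.37 (without KO 12 h replicate 2; 0.34 without WT 12 h replicate 1) for mitosis. The number of replication genes at an unadjusted p under 0.05 was then 5 (without KO 12 h replicate 1 or WT 24 h replicate 1) to 12 (without WT 12 h replicate 1), that of biogenesis genes 4 to 7 and that of mitosis genes 0 to 4. Without both times of replicate 3 in both genotypes it was 4 for replication, and without those of replicate 4 it was 3 for biogenesis. Among the type 1 interferon genes the number with the KO step below was up to 13 (without KO 12 h replicate 4; 10 without WT 12 h replicate 2), 12 with the replicate number as a block and 0 without replicate 3. Among the GTPases it was 0 to 4, and among the hypoxia-inducible genes 3 to 6. For the hypoxia-inducible genes it was 2 without replicate 1 or replicate 2, 1 without replicate 3 and 7 without replicate 4. The medians of the replication, biogenesis, mitosis, type 1 interferon, GTPase and hypoxia-inducible lists kept their signs in every such fit. Only these 6 lists were followed in this way. The fits share most of their libraries, so they are not independent of each other.

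**Figure D5:**
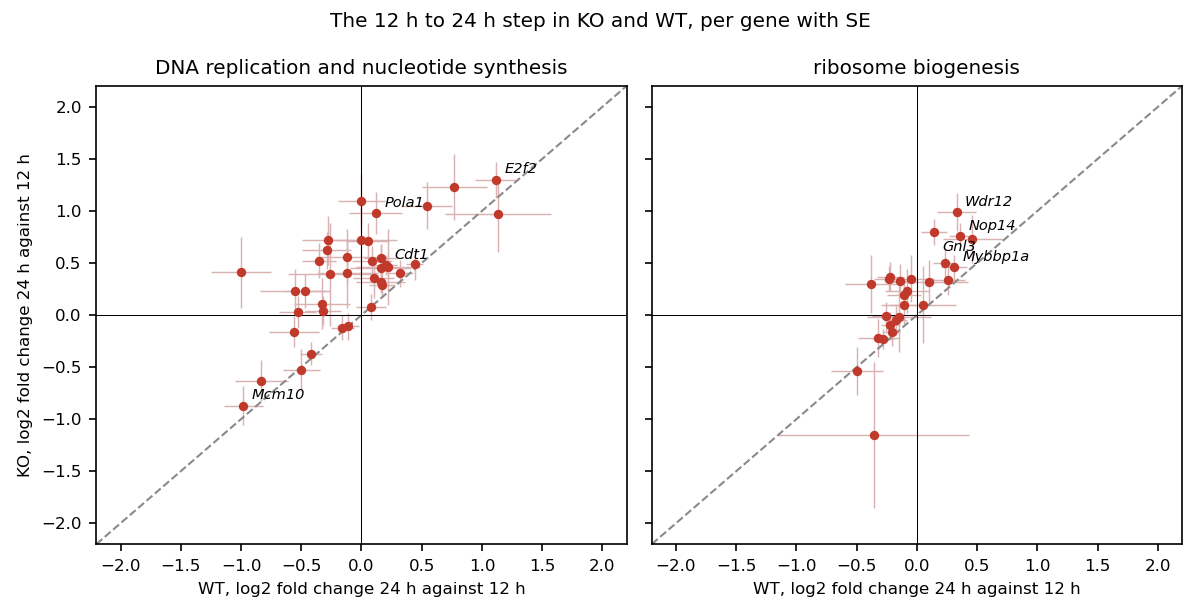
Log2 fold change from 12 h to 24 h in KO (y axis) against WT (x axis) for each measured gene of DNA replication (left) and ribosome biogenesis (right), with the SE of both and a dashed line where the steps are equal. Replication genes lie above the line in 33 of 37 cases with a tested difference and biogenesis genes in 24 of 25.

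The other lists are given as shares, to be read against 18.8% lower and 18.1% higher of all genes. Of 34 proteasome genes 10 fell (29.4%), of 22 NRF2 targets 8 (36.4%) and of 14 complement genes 5 (35.7%), and none was called higher. Without the 12 h library of replicate 4, 3 proteasome genes and 3 NRF2 targets were called higher. Of 21 genes of ATF4 and amino acid stress 8 fell (38.1%) and 3 rose (14.3%), and 4 fell without both libraries of replicate 3. Of 15 genes of activin, TGF-beta and matrix 6 fell (40%) and 2 rose (13.3%). Genes of the unfolded protein response had shares of 20.8% lower and 8.33% higher (5 and 2 of 24), with 3 lower without the 24 h library of replicate 1 or 2. Lysosomal genes had shares of 14.3% lower and 5.71% higher (5 and 2 of 35). In both of these lists 1 to 3 genes were called higher when 1 library was left out.

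Markers of other cell types ranged from nearly absent to abundant. No lymphoid marker had enough counts to be tested, and the 11 together summed to 1.27 to 3.74 CPM at 12 h and 0.608 to 3.20 CPM at 24 h. The 8 mast cell and basophil markers summed to at most 0.255 CPM, with 7 of them at 0 in all 8 libraries. Of the red cell and platelet precursor markers and of the stromal markers, 1 each was tested and neither was called, and they summed to at most 3.44 CPM and 7.99 CPM. The neutrophil markers summed to 75.6 to 94.5 CPM at 12 h and 61.6 to 65.6 CPM at 24 h. Of 13, 4 were tested and 1 fell: S100a8 went from 25.7, 24.5, 25.6 and 35.4 CPM to 13.4, 19.5, 15.6 and 18.5 CPM (log2 fold change -0.71, SE 0.191, adjusted p = 0.00507). The dendritic cell markers summed to 21.9 to 42.1 CPM at 12 h and 16.6 to 26.5 CPM at 24 h, and of 5 tested 2 fell. The osteoclast markers summed to 442 to 472 CPM and 437 to 506 CPM, and of 8 tested 3 rose and 2 fell. The monocyte markers summed to 972 to 1100 CPM at 12 h and 529.5 to 653 CPM at 24 h, without overlap, and of 9 tested 3 fell and 1 rose. Vcan, a matrix proteoglycan, fell from 279, 217, 334 and 157 CPM to 43.8, 61.5, 53.3 and 45.95 CPM (log2 fold change -2.26, SE 0.175, adjusted p = 3.02e-09). F13a1, a transglutaminase, fell from 58.6 ± 10.1 CPM at 12 h to 13.1 ± 3.31 CPM at 24 h (-2.16, adjusted p = 6.34e-06) and S100a4 also fell (-0.66, adjusted p = 1.53e-05), while Plac8 rose (0.69, adjusted p = 0.0393). The Plac8 call was lost without 12 h replicates 2, 3 or 4 or 24 h replicates 1, 2 or 4 (adjusted p up to 0.205). Csf1r and Lyz2 stayed above 400 CPM in all 8 libraries. The part of other cells in the results above was not tested.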

How the data were processed

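Libraries were made with the QuantSeq 3′ mRNA FWD kit (Lexogen), per the labels' protocols. The authors deposited estimated counts per Ensembl gene from RSEM 1.3.3 (whole numbers in the file). The submitters' processing notes also name STAR 2.7.10a, UMI-tools 1.1.2, cutadapt 3.7, FastQC 0.11.9 and GRCm39, with no role or order. Symbols (52029 of 57010 identifiers) came from a GRCm38 annotation. The 40 libraries held 3615155 to 6829303 counts. No pair of replicates agreed within sampling noise (chi-square per degree of freedom 2.88 to 18.9 over 12 pairs).

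edgeR 4.0.16 (R 4.3.3; TMM, filterByExpr with a minimum count of 10, prior count 0.125, robust quasi-likelihood) was fitted to the 20 KO libraries, to the 20 WT libraries, and, for the difference between genotypes, to the 16 libraries at 12 h and 24 h. SE is the log2 fold change divided by the root of F. DESeq2 1.42.0 and limma 3.58.1 (voom) served as alternatives. On simulated data for the KO step (11986 genes), 91% of genes changed 2-fold and 100% of those changed 4-fold were recovered. Of the unchanged genes, 6 (0.0509%) were called. The simulated libraries were independent, with the same dispersion for every gene and no replicate effect. Only 200 genes were changed, each with a mean of at least 20 counts. The real libraries differ in these respects, so the rates need not hold for them. The median SE was 0.174 for genes at 10 to 20 CPM and 0.0984 at 100 CPM or more. Same-numbered 12 h and 24 h libraries deviated together in KO (r across genes 0.27, 0.18, 0.31 and 0.30) and in WT (0.46, 0.24, 0.39 and 0.64). KO replicate 3 had 163 to 258 CPM of Y-linked tags over the 0, 3, 6, 12 and 24 h libraries. WT replicate 4 had 221 to 319 CPM, and no other library had more than 0.498 CPM. The numbers thus pair the libraries, although the labels do not say what a number stands for. The main fits treated the libraries as unpaired, and a block on the replicate number served as an alternative.

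The comparison and the 48 gene lists (9 of cell type markers; 1001 of 1090 genes measured) were chosen with earlier results of these data known. Genes were named from a rule: Otulin, Lyz2, Tnf, Il1b, Il6, Il10, Nos2 and Acod1; the 10 largest rises and falls; and, per list, up to 4 called members with the smallest p and up to 2 that were not called. Not all of these are named, and most of the uncalled ones are not. One gene of the largest falls is not reported here. Members that ran against their list or made up a small count, genes of the difference between genotypes and genes with a promoter match were named outside that rule, after their values were seen.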

Additional observations from a re-analysis of the deposited data

Results flagged for a closer look

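In 23 cases 1 of the 4 values of a named gene at 1 time lay far from the other 3, past the 95% critical value of Dixon's test. The 4-sample groups of 184 named genes, 368 in all, were examined, and chance alone flags about 1 in 20. KO replicate 4 held 12 of the 23. At 12 h it was high for Il1b (716 CPM, the others 453 to 485), Dusp4 (7.38, the others 4.74 to 4.86) and the neutrophil marker S100a8 (35.4, the others 24.5 to 25.7), and low for Il27 (32.3, the others 59.6 to 60.0), Dusp2 (64.9, the others 137 to 147) and Gbp4 (208, the others 236 to 241). At 24 h it was high for Ciita (10.4 CPM), Mcm6 (70.0), Pfkp (61.9) and Psmb10 (132) and low for Sik1 (27.6) and the metal transporter gene Slc11a1 (230). KO replicate 4 is also the replicate at the end of the second principal component. KO replicate 2 was low at 12 h for Ccl22 (11.8 CPM, the others 20.2 to 20.6) and Phgdh (8.91) and high for Cyp51 (212), and at 24 h it was low for Ccl4 (99.2) and high for Cenpa (70.1, the others 41.2 to 42.9) and Hspa1a (79.4). KO replicate 3 was high at 12 h for Tlr2 (85.7 CPM) and at 24 h for Cd86 (113), Pla2g4a (33.6) and Samd9l (200.1). KO replicate 1 was low at 12 h for Atg7 (20.7 CPM, the others 22.7 to 22.9). Each of these 23 genes was called, and its call held without any single library.

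The per-replicate median change of the ribosome biogenesis genes was above 0 in all 4 KO replicates, the lowest at 0.17, and below 0 in all 4 WT replicates, from -0.15 to -0.06. The difference of these medians was not tested.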

How the results depend on the processing

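The KO step was recomputed under 19 alternatives, and the counts called higher and lower stayed within 1.5 times those reported. Without 1 library at a time, 1834 to 2129 genes were called higher and 2021 to 2388 lower, and without 1 replicate number 1496 to 2041 and 1762 to 2346. With a replicate block 2401 were higher and 2472 lower, and the block ended no call of a named gene. The share of calls that were higher was 45.3% to 49.6% over the settings (49.1% as reported), and the median log2 fold change of all genes 0.00 to 0.03. In WT 4176 to 4632 genes were called without 1 library and 3519 to 4466 without 1 number, and at 6 h against 0 h in KO 7469 to 7709 and 6880 to 7676. For the difference between genotypes, 0 genes were called without any 1 library or number. DESeq2 called 1 gene, Vegfa (log2 difference -0.73), whose edgeR adjusted p was 0.318 with the replicate block. Without a filter on low counts edgeR called 1 gene, Timm8a1 (-3.83, adjusted p = 0.0307), which had 152 counts over the 16 libraries. The cause was not tested. Of 178 named genes called, 147 kept direction and call under every setting. The change of Lyz2, not called, became 0.04 without 12 h replicate 4, 0.00 without 24 h replicate 1 and 0.04 without replicate 4, and over all such omissions it lay between -0.11 and 0.04. A minimum count of 30 ended no named call, and a fit of the 8 libraries alone ended 16. Depth limits the low genes: at 10 to 20 CPM the median SE of a log2 fold change was 0.174.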
